A study of Mus musculus with 8 samples.

Results

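m6A (N6-methyladenosine, a methyl mark on adenosines inside mRNA) was examined on 10 short-lived transcription factor genes in mouse primary vascular smooth muscle cells (VSMCs). They were the FOS family (Fos, Fosb, Fosl1, Fosl2), the JUN family (Jun, Junb, Jund), Atf3, Egr1 and Myc. A summit (the highest point of an m6A peak) was assigned to a gene where it lay in one of its annotated exons (GENCODE M21 annotation of the mouse genome GRCm38). This rule gave 96 summits of the 42744 in the 4 peak lists, that is 28 of 11158 in shCTR A, 21 of 8655 in shCTR B, 30 of 13675 in shMettl14 A and 17 of 9256 in shMettl14 B. Of the 10 genes, 9 had a summit in at least 1 list and 8 had one in all 4 lists.

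The study asked how the m6A map of VSMCs changed when Mettl14, a subunit of the methyltransferase complex that writes m6A, was knocked down. VSMCs were grown from the aorta of wild-type adult C57BL/6J mice and passaged, and all cultures were transduced with a lentivirus. The virus carried a nontargeting control hairpin (shCTR) or 1 hairpin against Mettl14 (shMettl14), so a knockdown and not a deletion was compared. The 8 samples were an immunoprecipitate with an anti-m6A antibody (IP) and its input for replicates A and B of each hairpin, and 1 peak list was deposited per IP. The labels do not say whether A and B were separate cultures, so each p-value below measures the spread between these samples, which may be technical. The knockdown itself could not be checked here, because Mettl14 exons held no summit in any list and peak lists give no transcript levels.

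FOS and JUN proteins are basic leucine zipper factors that pair to form AP-1, a dimer that binds DNA. Most genes of these families, with Atf3, Egr1 and Myc, are immediate early genes, whose mRNA is made within minutes of a growth factor or injury signal and is degraded soon after. In VSMCs they are known as early targets of serum and platelet-derived growth factor. METTL3 and METTL14 methylate adenosine in a DRACH context, in which D stands for any base but C, R for a purine and H for any base but G, and m6A is best known around stop codons and in long exons.

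The 96 summits fell into 39 sites when summits of a gene were linked within 60 nt, and 10 of these sites had a summit in all 4 lists. To show what the antibody pulled down most reproducibly, the DRACH motif nearest to the median summit is given in capitals for 6 sites around stop codons that were found in all 4 lists (GGACT where one lay within 50 nt, otherwise the nearest DRACH). Sequences are the sense strand from 5′ to 3′ and were read from GENCODE M21 transcripts. The Egr1 stop site was also found in all 4 lists and is described by its values alone.
Fosb stop site (chr7:19304791-19304815, minus strand, 3′ UTR): aacccgcaagGAACAaggaggagga
Fosl2 site past the stop codon (chr5:32153432-32153456, plus strand, 3′ UTR): cttggtttgtGGACTcagacgcgcc
Jun stop site (chr4:95050201-95050225, minus strand, 3′ UTR): taacagagacAAACTtgagaacttg
Junb site past the stop codon (chr8:84977259-84977283, minus strand, 3′ UTR): ctcacacactGGACTccggcccgcc
Jund site past the stop codon (chr8:70700150-70700174, plus strand, 3′ UTR): cggtgcccccGGACTcgacaagccg
Myc stop site (chr15:61989906-61989930, plus strand, 3′ UTR): taaactgaccTAACTcgaggaggag
The methylatable A of the Jund motif lay 0 nt from the median summit, and that of the Fosl2 motif lay 49 nt downstream of it. Within 50 nt of the median summit these sites held from 1 (Junb) to 8 (Fosb) DRACH motifs. The capitals thus do not show which A was methylated.

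A further pair of windows shows sites away from the stop codon: the Jun site just before the start codon, and 101 nt around the median summit of the Junb coding site, which held a single DRACH (in capitals) and 0 copies of GGACT.
Jun 5′ UTR site (chr4:95051376-95051400, minus strand): gctcctaaacAAACTttgttacaga
Junb coding site (chr8:84978014-84978114, minus strand): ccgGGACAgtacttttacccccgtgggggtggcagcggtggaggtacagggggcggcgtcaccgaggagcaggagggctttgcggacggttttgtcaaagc

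**Figure D1:**
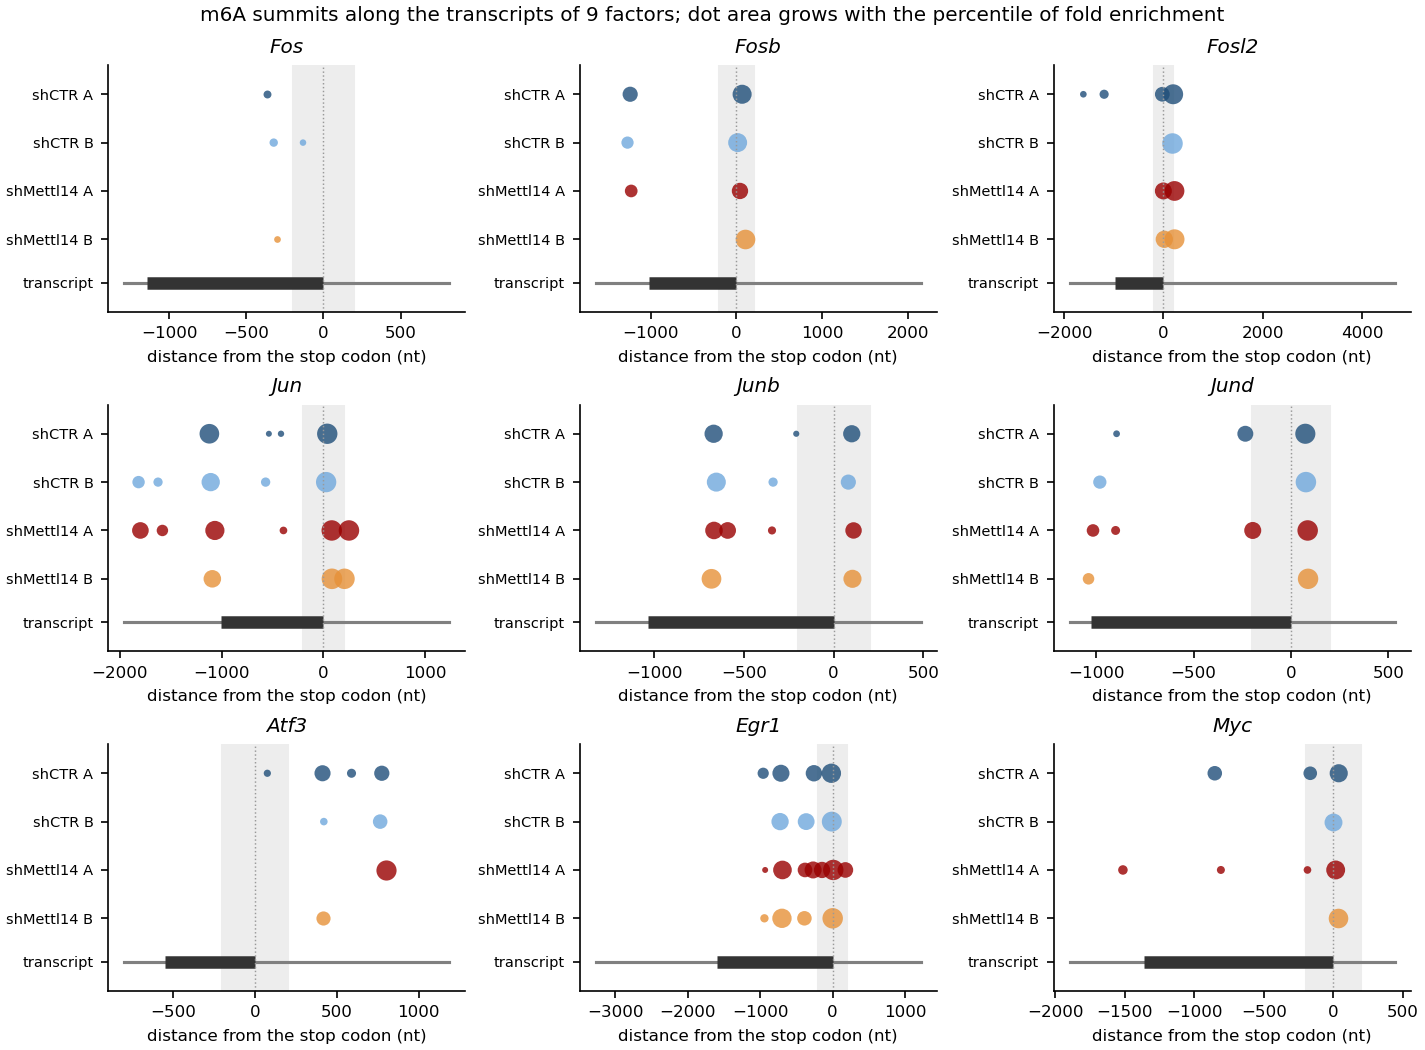
Each panel plots the summits of 1 gene by their distance from the stop codon (nt, x axis) in each of the 4 lists (rows), with dot area growing with the within-list percentile of fold enrichment. The thick bar is the coding sequence, the thin line the UTRs and the grey band 200 nt either side of the stop codon. Jun, Jund, Egr1 and Myc have large dots inside the band in all 4 lists, whereas the Atf3 dots lie 76 to 798 nt past the stop codon, 1 of them inside the band.

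Since depth and background differ from list to list, each summit was given as its percentile within its list (0 for the weakest and 100 for the strongest peak). If every site lost the same share of its m6A, these percentiles would not move, and they cannot show such a loss. Distances are counted from the first base of the stop codon.

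Within the FOS family, the strongest summits of Fosb and Fosl2 lay 14 to 222 nt past the stop codon in every list, Fos had coding summits only and Fosl1 had none in an exon. FOSB can replace FOS in the AP-1 dimer, and its summits 14 to 97 nt past the stop codon reached percentiles of 84.1 and 83.0 in shCTR A and B and of 59.6 and 89.8 in shMettl14 A and B. The 2 groups overlapped. A second Fosb site in the 5′ UTR, 211 to 254 nt before the start codon, had a GGACT within 50 nt and was found in 3 lists, at percentiles of 50.05, 29.6 and 32.4 in shCTR A, shCTR B and shMettl14 A.

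FOSL2 (Fra-2) lacks the strong activation domain of FOS. Its main site, 174 to 222 nt past the stop codon, was at percentiles of 92.9 and 98.9 in the shCTR lists and 91.2 and 93.3 in the shMettl14 lists. It was thus high in every list, with overlapping groups. A weaker summit within 23 nt of the stop codon itself was called in 3 lists (46.9 in shCTR A, 64.9 in shMettl14 A, 67.9 in shMettl14 B). The interval of shCTR B also covered that position without a summit of its own there.

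Fos, the founding member, had a coding site 300 to 367 nt before the stop codon in 3 lists. Its percentiles were 7.23 in shCTR A, 9.10 in shCTR B and 2.65 in shMettl14 B, so it was among the weakest peaks of each list. The IP pileup, which counts the fragments that overlap the summit, was 19, 17 and 8 there over a background of 3.40, 2.72 and 1.22, and shMettl14 A had no Fos summit. Fosl1 (Fra-1) had 0 summits in exons in all 4 lists although its transcript holds 40 DRACH motifs. Only shCTR B had a summit elsewhere in the gene, with a pileup of 7.

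In the JUN family, the sites of Jun and Jund past the stop codon were at a percentile of 94.7 or above in every list. JUN is the most transcriptionally active partner of FOS, and Jun, Junb and Jund each consist of a single exon. The Jun site 26 to 83 nt past the stop codon was at percentiles of 97.2 and 96.9 in the shCTR lists and 98.2 and 99.5 in the shMettl14 lists, with pileups of 103, 84, 67 and 68. Both shMettl14 percentiles lay above both shCTR percentiles, by a difference of means of 1.84 percentile points, while both pileups were lower.

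A second Jun summit 206 to 250 nt past the stop codon was called at percentiles of 98.5 and 98.7 in the shMettl14 lists and not in the shCTR lists. Intervals of both shCTR lists nevertheless covered that position, and the lists give no pileup there without a summit. Conversely, a weak coding site 536 to 568 nt before the stop codon was called in both shCTR lists (0.269 and 13.4) and in neither shMettl14 list.

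The Jun 5′ UTR site, 64 to 118 nt before the start codon, was at percentiles of 90.1 and 77.0 in shCTR and 85.3 and 69.9 in shMettl14. The groups overlapped. Jun carried 7 sites in all, and the other 5′ UTR sites were found in shCTR B and shMettl14 A alone.

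JUNB often acts against JUN at growth genes. Its strongest site lay in the coding sequence, 653 to 680 nt before the stop codon, at percentiles of 76.5 and 83.7 in shCTR and 70.2 and 90.8 in shMettl14. The site 82 to 111 nt past the stop codon was lower in each list, at 67.2 and 49.95 in shCTR and 60.5 and 75.2 in shMettl14. Of the 9 genes with summits, only Junb had a stop codon site in every list and yet its strongest summit in the coding sequence each time.

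JUND is the family member least induced by growth signals. The Jund site 74 to 88 nt past the stop codon was at percentiles of 94.7 and 98.6 in shCTR and 98.7 and 97.8 in shMettl14, with pileups of 100, 117, 86 and 80. These were among the highest pileups of the set, and the groups overlapped in percentile but not in pileup. At the other end, a site from 16 nt before to 42 nt after the start of the coding sequence was called in 3 lists (36.3 in shCTR B, 31.7 in shMettl14 A, 25.2 in shMettl14 B) and no DRACH lay within 50 nt of its median summit. Exons of the antisense gene Gm11175 share the positions of 2 Jund summits in shCTR A and 2 in shMettl14 A, and the lists hold no strand.

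Atf3 encodes a stress-induced factor that pairs with JUN. All its summits were in the 3′ UTR, and none of its sites had a summit in all 4 lists. The site 413 to 421 nt past the stop codon was at percentiles of 57.6 in shCTR A, 5.81 in shCTR B and 42.6 in shMettl14 B. The site 765 to 798 nt past it was at 50.5 in shCTR A, 45.3 in shCTR B and 95.3 in shMettl14 A. At the first of these sites the shCTR replicates lay further apart than the means of the groups, and pileups at both sites were only 6 to 20 fragments.

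Egr1, a zinc finger factor induced through serum response elements, and Myc, the basic helix-loop-helix factor of the cell cycle, both had their strongest summit at the stop codon. For Egr1 the summits from 17 nt before to 9 nt after the first base of the stop codon were at percentiles of 86.9 and 92.9 in shCTR and 97.6 and 98.4 in shMettl14, with pileups of 105, 93, 78 and 79. Both shMettl14 percentiles were higher than both shCTR percentiles (89.9 ± 4.20 against 98.0 ± 0.621, SD, n = 2) and both pileups were lower. The Egr1 coding site 692 to 725 nt upstream showed the same order of percentiles, at 65.7 and 67.8 in shCTR and 80.1 and 87.0 in shMettl14. Egr1 had 7 sites in all, and 2 other coding sites, each called in 3 lists, ran the other way. The site 365 to 389 nt before the stop codon was at 63.6 in shCTR B and at 46.1 and 45.2 in shMettl14, and that 931 to 958 nt before it was at 23.4 in shCTR A and at 0.230 and 8.91 in shMettl14. A GGACT lay near the coding summit 692 to 725 nt upstream, and 4 DRACH motifs but no GGACT lay near the one at the stop codon.

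Myc summits from 5 nt before to 39 nt after the first base of the stop codon were at percentiles of 75.3 and 73.3 in shCTR and 82.5 and 89.2 in shMettl14. The means were 74.3 ± 1.43 and 85.8 ± 4.76 (SD, n = 2), with no overlap. The pileups of 28, 29, 27 and 30 did overlap. Another 3 Myc sites were found in 1 or 2 lists each. Both coding sites were called in the A lists alone and had the opposite order, at 45.3 in shCTR A against 7.52 in shMettl14 A and at 38.6 against 6.10. The 5′ UTR site was called only in shMettl14 A, at 14.4.

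**Figure D2:**
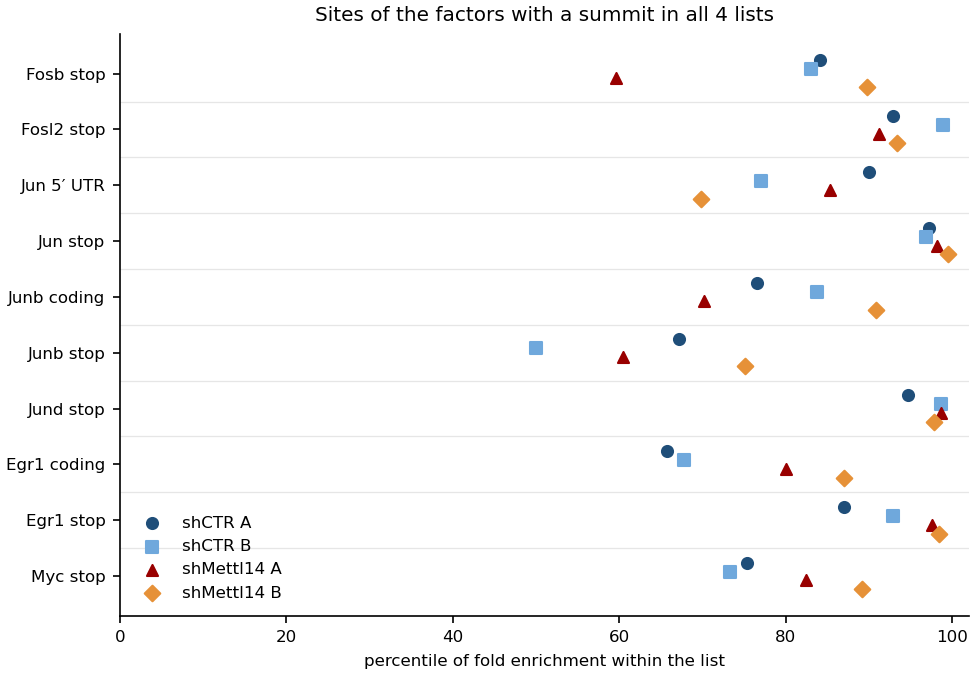
The percentile of fold enrichment within the list (x axis) is plotted for the 10 sites with a summit in all 4 lists, 1 symbol per list. Both shMettl14 symbols lie to the right of both shCTR symbols at Jun stop, Egr1 coding, Egr1 stop and Myc stop, and no site shows the opposite order.

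Of the 10 sites found in all 4 lists, 4 were higher in both shMettl14 lists than in both shCTR lists and 0 were lower. Over all 5043 sites of the genome with a summit in all 4 lists these shares were 17.5% and 15.8%. With 2 lists per group, the exact permutation test of a single site cannot give a two-sided p below 0.333. The 4 sites belong to 3 genes, so they are not independent. Of these, the Jun stop site alone had a fold enrichment that overlapped between the groups.

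Fold enrichment divides the IP pileup by a background that the peak caller took from the input, and both were recovered from the deposited values. At the Egr1 stop site the background was 6.63 and 4.59 fragments in shCTR and 3.35 and 2.48 in shMettl14. At the Jun stop site it was 4.21 and 3.19 in shCTR and 2.56 and 1.59 in shMettl14. Pileup and background were both lower in both shMettl14 lists at 6 of the 10 sites, compared with 19.5% of all 5043 sites. Besides these 2 they were the 5′ UTR site of Jun, the coding sites of Junb and Egr1 and the Jund site past the stop codon, so this order also held at 3 sites whose percentiles overlapped between the groups. The lowest background of a list, which stands for its average over the genome, had the same order, at 0.0752 and 0.0696 in shCTR and 0.0614 and 0.0418 in shMettl14. The part of depth in the order of the percentiles was not tested. The members stood on higher background than other coding genes, with a median of 2.85 against 0.958 fragments over all lists, and had a median pileup of 29.5 against 16. In these bulk samples, a lower background from fewer cells that make a transcript cannot be told from one with less RNA per cell.

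**Figure D3:**
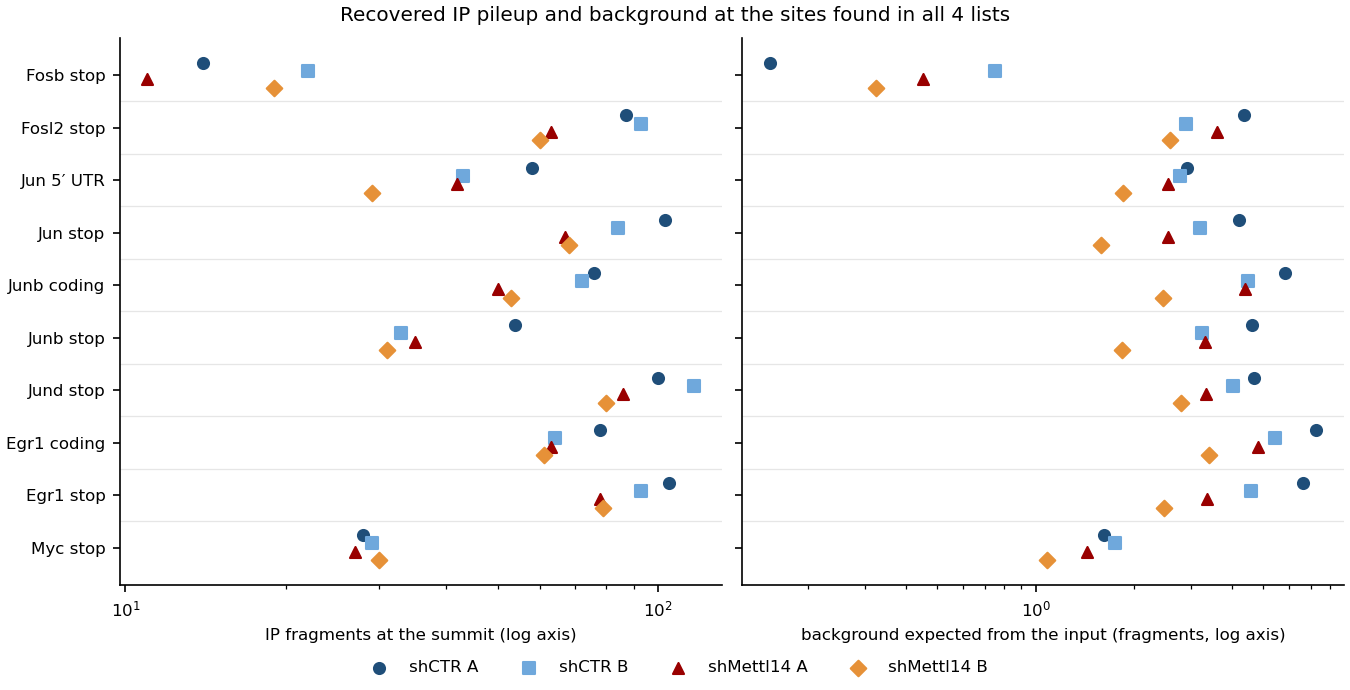
The IP pileup (left) and the background from the input (right), both in fragments on a log axis, are plotted for the same 10 sites in each list. Both values are lower in both shMettl14 lists at 6 of the sites (both Jun sites, both Egr1 sites, Junb coding and Jund past the stop codon), and Myc pileups of 27 to 30 coincide.

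Whether any region changed beyond the spread between replicates was tested with limma over all regions found in all 4 lists. A region is a set of overlapping intervals, and each list entered with its strongest summit in the region. The positions compared could thus differ between lists, and weaker sites of a region did not enter. Of 4929 such regions, 9 belonged to the factors: 2 to Jund and 1 each to Fosb, Fosl2, Jun, Junb, Atf3, Egr1 and Myc. On ranks of fold enrichment, turned into normal scores, 0 of 9 passed an adjusted p of 0.05, against 0% of all regions, and 0 of 9 had an unadjusted p under 0.05, against 243 of 4929. The changes were higher after knockdown in 7 regions and lower in 2, with a median of 0.438 against 0.00212 over all regions. The direction of this count was not stable, since ranking −log10 p gave 4 higher and 5 lower, as did leaving out shCTR A.

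With all 4 lists, the largest change was that of the Egr1 region (chromosome 18, 34862683 to 34864075), 0.817 ± 0.5004 (SE), with a limma adjusted p of 0.993. Atf3 followed with 0.812 ± 0.559 (SE, limma adjusted p = 0.993). Fosl2 had the lowest value, −0.546 ± 0.517 (SE, limma adjusted p = 0.999), but this was −0.0348 without shCTR B and −1.05 without shCTR A, and without shMettl14 B Fosb was lowest at −0.977. Standard errors of the 9 changes were 0.499 to 0.559, larger than 5 of the changes themselves, so a moderate change at a single gene was not detectable with 2 lists per group.

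For the IP pileup alone, limma called 0 of 9 regions of the factors and 0% of all regions, with 0 of 9 and 217 of 4929 at an unadjusted p under 0.05. The log2 pileup, centred on the median over shared regions, lay below shCTR in 7 regions and above it in 2, with a median change of −0.12, but quantile normalization gave 5 lower and 4 higher, as did leaving out shCTR B (median −0.066). The median was −0.29 without shCTR A, −0.28 without shMettl14 B and −0.076 without shMettl14 A. Jund at its 5′ end had the lowest value (−0.38 ± 0.23, SE, limma adjusted p = 0.985) and Myc the highest (0.26 ± 0.27, SE, limma adjusted p = 0.985).

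For the background, limma again called 0 of 9 regions and 0% of all regions, with 1 of 9 and 277 of 4929 at an unadjusted p under 0.05. That 1 region was Atf3, whose log2 background differed by −1.14 ± 0.29 (SE), with a limma adjusted p of 0.834. Leaving out shCTR B raised the count to 5 of 9 (457 of 5394 over all regions), with 7 lower and a median of −0.45 against −0.14, and still 0 passed the adjusted p. With all 4 lists 5 regions were lower and 4 higher, with a median of −0.10 against 0.059 over all regions. Besides Atf3, the regions ranged from −0.59 at the 5′ end of Jund to 0.71 at Fosb. Fisher's exact test on pileups summed over replicates, the test named in the methods of the study, gave 0 of the 9 regions and 0 of 4929 at the adjusted p of 0.05 used here. At an unadjusted p under 0.05, which that test was read at in the study together with a limit on the fold change that was not applied here, it gave 0 of 9 and 158 of 4929.

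**Figure D4:**
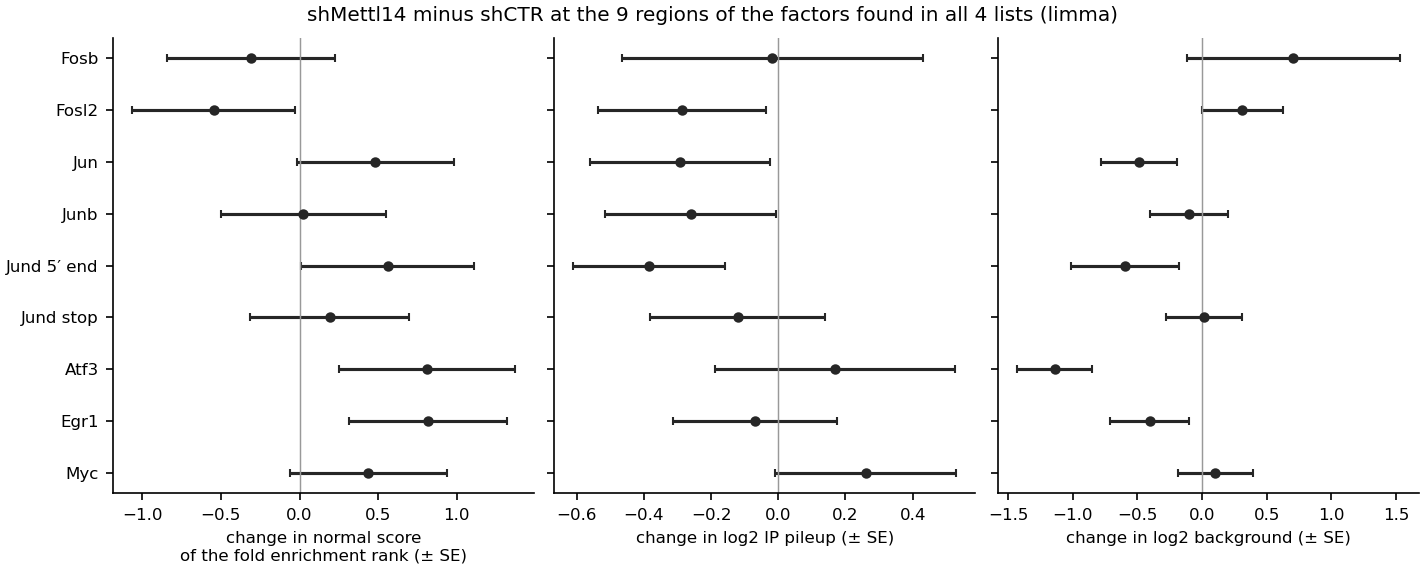
The change from shCTR to shMettl14 (x axes, point and SE from limma) is plotted for the 9 regions of the factors in rank of fold enrichment, in log2 IP pileup and in log2 background. Egr1 and Atf3 lie furthest right in rank, at 0.817 and 0.812, Atf3 lies furthest left in background at −1.14, and no region passed an adjusted p of 0.05. The Atf3 points compare summits of different sites.

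Averaged over all summits of a gene, 4 of 9 factors had a lower mean percentile in shMettl14 (Fos, Jund, Egr1, Myc) and 5 a higher one, where 53.7% of all genes with summits in both groups were lower. The median change was 6.21 percentile points for the factors and −1.26 for all genes. This direction was not stable, since the median of the factors was −2.89 without shCTR A and −2.84 without shMettl14 B, and it was 14.2 without shMettl14 A and 1.56 by the strongest summit of each gene. Of the 8 factors with a summit in all 4 lists, 0 were lower in both shMettl14 lists than in both shCTR lists, against 18.4% of all such genes. Jun, Junb and Atf3 were higher in both, 3 of 8 against 14.7%, and the exact permutation test gave each of them a two-sided p of 0.333, the smallest possible. For Atf3 the shMettl14 means were 1 summit each, at different sites (95.3 and 42.6), against 4 and 2 summits in shCTR. Its strongest summits overlapped between the groups, at 57.6 and 45.3 in shCTR.

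For Jun and Junb the strongest summit differed less than the gene mean. For Jun the mean percentile was 47.2 and 46.2 in shCTR and 62.5 and 89.3 in shMettl14, but the strongest summit was only 1.95 points higher on average. Junb means were 48.2 and 48.9 in shCTR and 50.3 and 83.0 in shMettl14, with a difference of 0.356 in the strongest summit. Jun had 4 and 5 summits in shCTR and 6 and 3 in shMettl14, and Junb 3 and 3 against 4 and 2. These add up to the same number in each group, but the weakest summits differed. The weakest Jun summit was at 0.269 and 13.1 in shCTR A and B and at 6.17 and 69.9 in shMettl14 A and B. For Junb it was at 0.811 and 13.0 in shCTR and at 8.05 and 75.2 in shMettl14. The part of the number of weak summits in the gene means was not tested.

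By presence, 8 of the 9 factors with a summit in any list had one in all 4 lists, compared with 60.7% of the 6075 genes with a summit in any list. Merging intervals gave 17 regions of the factors. None of the 17 was in both shCTR lists and neither shMettl14 list, which 1.71% of all 11361 regions were, and none was in both shMettl14 lists only, which 1.79% were. In the consensus intervals that the authors deposited for each hairpin, 3 of 14 shCTR intervals over the factors (Fos, Fosb, Atf3) and 1 of 12 shMettl14 intervals (Jund) did not overlap the other file, compared with 17.0% and 15.5% of all intervals in the 2 files. All 4 of these regions had a peak in at least 1 list of the other group.

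Along the transcript, 36 of 96 summits (37.5%) lay within 200 nt of the stop codon, compared with 26.4% of 34550 summits in all coding genes. By group the share was 36.9% ± 1.68 in shCTR and 38.9% ± 3.19 in shMettl14 (SD, n = 2), a difference smaller than the spread between replicates. The strongest summit of a gene was within 200 nt of the stop codon in 21 of 35 pairs of a gene and a list. Another 15 summits (15.6%) lay in the 5′ UTR, compared with 2.58% in all coding genes, and these belonged to Fosb, Fosl2, Jun, Jund and Myc. In the last exon lay 91.7% against 64.2%. The JUN genes have 1 exon, so all their summits count here, and of the 55 summits of the other factors 85.5% were in the last exon too. Their last exons took up much of the transcript, from 5172 of 6537 nt in Fosl2 to 1005 of 2338 nt in Myc. The part of exon length in this share was not tested.

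**Figure D5:**
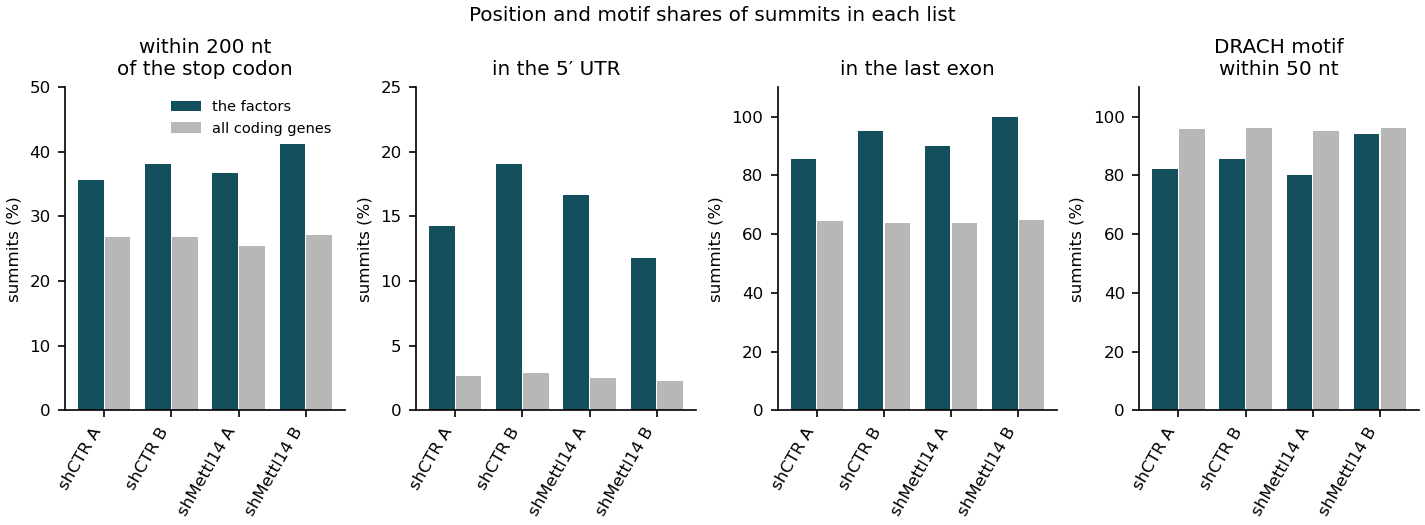
Bars give the percent of summits that lay up to 200 nt from the stop codon, in the 5′ UTR, in the last exon and with a DRACH motif within 50 nt, for the factors and for all coding genes in each list, each panel on its own axis from 0. The factors exceed all coding genes in the first 3 panels in all 4 lists and fall below them in the fourth.

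A DRACH motif had its A within 50 nt of 84.4% of the factors' summits, compared with 95.7% in all coding genes. The 15 summits without one were weaker, at a median percentile of 25.2 against 64.9 for the others. Of these, 11 were in Jun, Junb and Jund, where the 101-nt window around the summit was 63.4% to 79.2% G or C, and 13 were in coding sequence. The median G or C content around a summit was 71.3% in Jund, 68.3% in Junb and 64.4% in Jun, compared with 51.5% over all coding genes. GGACT lay within 50 nt of 27.1% of summits, compared with 21.6%. The AU-rich pentamer ATTTA, an element of mRNA decay present in the 3′ UTR of all 10 factors, was within 50 nt of 0 of 36 summits in 3′ UTRs, compared with 8.58% in all coding genes.

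Genes that work with these factors were read from lists of related genes. Of 15 other immediate early genes, 12 had a summit in some list and 11 in all 4, and the mean percentile was lower after knockdown in 9 and higher in 3. Of all genes with summits in both groups, 53.7% were lower. By linked sites, the rank test gave 8 lower and 10 higher for these immediate early genes. Ier5l led them with its strongest summit at percentiles of 99.5, 99.9, 99.8 and 99.9, followed by Ier2 (92.3, 90.1, 96.5, 94.6) and the EGR1 relative Egr2 (96.1, 71.3, 81.7, 67.4), each in the order shCTR A, shCTR B, shMettl14 A, shMettl14 B. Ier5l and Ier2 thus stayed at 90.1 or above in every list.

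Of 11 AP-1 and bZIP partners, 4 had a summit, with the repressive dimer partner Jdp2, Maf and Maff leading, and 3 were lower and 1 higher. Among 13 upstream kinases and ternary complex factors, 6 had a summit, led by Elk4 (which binds serum response elements with SRF, at percentiles of 99.9 or more in every list), Map2k4 and Map2k7, and 5 were lower and 1 higher. Of 10 genes of the Myc network, 4 had a summit, Mga and Mycn had one in all 4 lists, and 2 of the 3 comparable genes were lower. Of 10 genes for decay of short-lived mRNA and protein, 5 had a summit, led by Fbxw7 (the ubiquitin ligase subunit that binds phosphorylated MYC and JUN), Btg1 and the m6A reader Ythdf2, and 3 were lower and 2 higher. In the 3 limma tests, 0 regions of these 5 lists passed an adjusted p of 0.05. Directions by region differed from those by gene mean. In the rank test 8 regions of the other immediate early genes were lower and 5 higher. The counts were 2 and 2 for the AP-1 and bZIP partners, 5 and 1 for the kinases and ternary complex factors, 3 and 2 for the Myc network and 1 and 6 for the decay genes.

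The cell type was checked with marker genes as far as peaks allow, since a peak needs both the transcript and the mark. Of 8 smooth muscle markers 2 had a summit and Lmod1, a smooth muscle actin nucleator, had one in all 4 lists. Of 5 endothelial markers 3 had one, with Cdh5 and Pecam1 in all 4 lists, and of 4 macrophage and 3 fibroblast markers 1 each had one. The markers' part in the peaks of the factors was not tested.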

How the data were processed

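m6A-RIP-seq of 4 IP samples and their 4 inputs was analysed from the deposited peak lists. Per the labels and methods, total RNA was fragmented and immunoprecipitated, reads were aligned to mm10 (GRCm38) with STAR, and the authors called peaks of each IP against its own input with MACS2. Versions and options are not given in the sources used here. The deposited lists hold a fold enrichment (a ratio of IP over background) and −log10 p- and q-values per summit. The authors also deposited consensus interval files, with no values, for each hairpin.

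The ratio is (pileup + 1)/(background + 1) and the p-value is a Poisson tail, so a whole-number pileup and a background could be solved for. Both deposited values were matched in 100% of summits (largest error 0.000151 in −log10 p). Median pileups of 13 to 16 fragments limit the precision of single peaks. Read totals were not analysed here.

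Summits were placed on GENCODE M21 (55450 genes), using for each coding gene (21606) the complete transcript with the longest coding sequence. Peak ends lay within the lengths of the reference chromosomes. Regions were intervals merged at 1 bp or more of overlap, and those in all 4 lists were tested with limma 3.58.1 (R 4.3.3, lmFit and eBayes, two-sided, Benjamini-Hochberg over all 4929). Measures were normal scores of ranks, log2 pileup and log2 background, the last pair centred on the median. Motif shares used summits in the transcript of 1 gene. Scripts were tested on simulated data. Python 3.11.15, numpy 2.4.6, pandas 2.3.3, scipy 1.17.1 and matplotlib 3.10.9 were used. The members, related lists and alternatives were chosen with earlier results of these data known, and the sites linked within 60 nt were added after seeing the data. All 10 factors were named, with up to 3 genes per related list (a summit in all 4 lists and the highest mean percentile of the strongest summit) and any gene of a list past an adjusted p of 0.05. From the list of AP-1 and bZIP partners, 1 gene is not reported here and is left out of its counts.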

Additional observations from a re-analysis of the deposited data

How the results depend on the processing

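In each of the rank, pileup and background tests, 0 regions of the factors passed the adjusted p under every alternative run, including the replicate block (0, 0 and 0 of 9 regions) and the sites linked within 60 nt with or without that block, a choice made after seeing the data. The labels do not say whether the letters A and B mark shared batches, and A held more summits than B in both groups. The A minus B differences of the shCTR and shMettl14 lists correlated at 0.0795 over 4929 regions. With 1 list left out, the lone list of its group was assumed to vary like the other group. The count of factors with a peak in every list was 8 or 9 throughout. The count of factors with a lower mean percentile (4) was 1 of 8 with equal numbers of top peaks and ranged from 2 to 5 with 1 list left out (2 without shCTR B or without shMettl14 A). The share of summits near the stop codon (37.5%) was 26.0% within 100 nt, 55.2% within 400 nt, 33.3% by interval midpoint and 42.0% with equal numbers of top peaks (14.2%, 41.1%, 25.7% and 27.1% over all coding genes), and 36.7% to 38.2% with 1 list left out. Regions of one group only (0 of 17, 3.49% of all regions) became 4 of 26 by the deposited consensus intervals, 2 of 39 by linked sites (6.76% of all), 1 of 14 with equal numbers of top peaks (Fosb; 4.68% of all) and 0 to 3 with 1 list left out (12.7% to 17.5% of all; 3 without shCTR B, 2 without shMettl14 B, 1 without shMettl14 A). No region of the factors passed the threshold under any alternative run. Elsewhere in the genome 3 of 5076 regions passed the rank test without shMettl14 A and 18 of 5043 the pileup test of linked sites with the replicate block. The factors' changes in rank switched sign in 16 of 104 cases. Ranking −log10 p gave −0.115 for Jun, −0.0623 for the 5′ end of Jund and −0.261 for Junb. Fisher's exact test, whose log2 ratio is of pileups, gave −0.031 for Egr1, −0.25 for Jun, 0.040 for Fosb, −0.33 and −0.083 for the 5′ end and stop codon of Jund and −0.22 for Junb. Equal numbers of top peaks gave −0.00348 for Junb. With 1 list left out the range was −0.0877 to 1.64 for Atf3, −0.977 to 0.390 for Fosb, −0.285 to 1.42 and −0.186 to 0.558 for the 5′ end and stop codon of Jund, and −0.540 to 0.598 for Junb, and, with no change of sign, −1.05 to −0.0348 for Fosl2, 0.176 to 0.778 for Jun, 0.549 to 1.06 for Egr1 and 0.129 to 0.726 for Myc. The causes were not tested. Low pileups (6 to 20 at Atf3) limit what single sites can show.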
